A study of Mus musculus with 6 samples.

Results

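The 10 vasoactive genes described here were chosen by symbol from the 22026 gene symbols listed for choroid endothelial cells (ECs), and all 10 were present: Edn1, Ednra, Ednrb, Ece1, Nos3, Gucy1a3, Gucy1b3, Ptgs1, Ptgis and Ace. The ECs came from 129/B6 mice at P5 (pups) and P30 (young adults), and the comparison asks how the transcripts of developing and adult choroid ECs differ. Each age had 3 independent isolations, and each isolation pooled the RPE/choroid of 7 animals (14 eyes). Cells were labelled in the living mouse by an injected antibody to VE-Cadherin, a junction protein specific to ECs, and sorted by flow cytometry, and no transgene or deletion was involved. The ages also differed in anaesthesia (hypothermia at P5) and in the dose of antibody, which cannot be told apart from age. Because animals were pooled, the spread between isolations is a spread between pools.

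ECs set the tone of the vessel wall by releasing peptides and small molecules that act on neighbouring smooth muscle cells and pericytes. Endothelin-1 is cut from its precursor by endothelin-converting enzyme and constricts vessels through the type A receptor on mural cells, while the type B receptor on ECs clears the peptide and triggers release of dilators. Nitric oxide made by the endothelial synthase activates soluble guanylate cyclase, a dimer of an alpha and a beta subunit that makes cGMP and is best known in mural cells and platelets, and prostacyclin is made from arachidonic acid by a cyclooxygenase followed by prostacyclin synthase. Angiotensin-converting enzyme, on the surface of ECs, makes angiotensin II and inactivates bradykinin. The choriocapillaris that these ECs line is fenestrated and supplies the outer retina.

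Expression is given as FPKM, fragment numbers scaled to transcript length and to the reads of the library, so that levels can be compared between genes, and values with ± are the mean and SD of 3 isolations unless marked SE. Differences between ages are log2 fold changes of log2(FPKM + 1), P30 minus P5, from limma fitted over 12481 genes whose mean FPKM reached 5 at P5 or P30, a minimum that all 10 genes passed at both ages. A gene was called at a Benjamini-Hochberg adjusted p under 0.01 over all these genes if its mean FPKM + 1 also changed 2-fold or more. Of the 10 genes, 2 were called higher at P30, Edn1 and Ace, where 5.89% of all genes tested were called in that direction, and 0 were called higher at P5 (limma, against 5.82% of all genes tested, with 0 of the 10 lower at P30 at an unadjusted p under 0.05). In 6 genes (Edn1, Ednrb, Ece1, Nos3, Ptgis and Ace) all P30 isolations exceeded all P5 isolations, as in 22.0% of the genes tested, and in none of the 10 did all P30 isolations lie below all P5 isolations, as in 33.0%. As a group, the 10 genes had a median log2 fold change of 0.93, against a median of -0.10 for all genes tested.

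**Figure D1:**
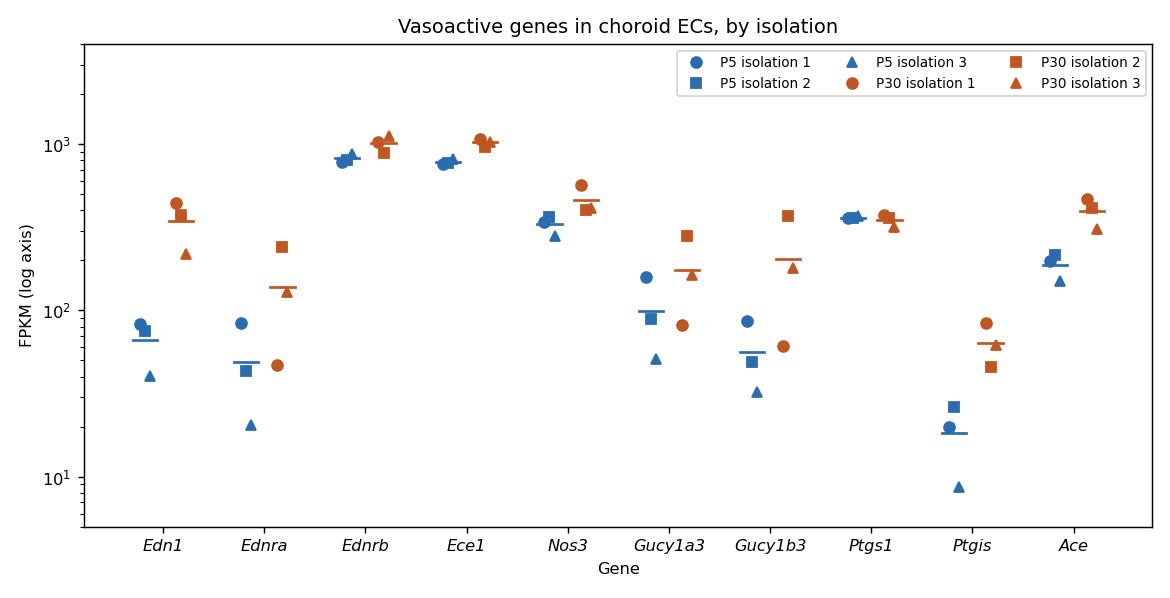
FPKM (log axis) of the 10 vasoactive genes in each of the 3 P5 (blue) and 3 P30 (orange) isolations, with bars at the mean of each age and symbols for the isolation number. Edn1, Ptgis and Ace are separated between the ages, Ednrb, Ece1 and Ptgs1 vary little, and the 3 P30 isolations of Ednra, Gucy1a3 and Gucy1b3 are spread widely, from 47.1 to 240 FPKM in Ednra.

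The purity of the sort bears on these genes, as several are better known in mural cells than in ECs. The 10 endothelial markers were all present, and their summed FPKM was 21588 to 22877 at P5 and 30263 to 36812 at P30, led by Plvap and Emcn (1 of 10 called higher at P30, Plvap, the protein of the fenestral diaphragm). Most of that difference was Plvap, at 4692 ± 140.2 and 11590 ± 2515 FPKM. Cdh5, which encodes VE-Cadherin, was lower in every P30 isolation (2971 ± 95.4 and 1885 ± 52.4, log2 fold change -0.66, limma adjusted p = 0.00205, short of 2-fold), and Pecam1, an adhesion protein of ECs, overlapped (1611 ± 70.8 and 1421 ± 167). Summed FPKM was also higher in every P30 isolation for the pericyte list (468 to 1712 at P5, 1841 to 6228 at P30, 1 of 7 genes called), the smooth muscle list (561 to 595 and 716 to 1470, 2 of 8) and the fibroblast list (729 to 1200 and 1917 to 4544, 2 of 8). The same held for the RPE list (68.3 to 149 and 503 to 3854, 5 of 8) and the photoreceptor list (15.8 to 26.4 and 58.2 to 399, 2 of 8). Rgs5 was the largest part of the pericyte sum in every isolation (208 to 1042 at P5, 1283 to 4082 at P30). Of the 7 pericyte genes, 4 were separated upwards, while Cspg4, Notch3 and Abcc9 overlapped between the ages. The pigment cell list (105 to 479 and 142 to 1296, 0 of 8 called by limma, 2 separated upwards) overlapped between the ages. The haematopoietic list also overlapped (588 to 879 and 323 to 835), with 3 of 8 genes called higher at P5. The platelet list was lower in every P30 isolation (421 to 484 and 36.4 to 146, 1 of 6 called higher at P5, Pf4), and its Gp6 was listed at 0 in every isolation. Nearly all of that sum at P5 was Pf4 (407 to 467 FPKM, against 15.2 to 138 at P30). The other genes of the platelet list that were detected overlapped between the ages. In sorted bulk samples, fewer cells of a type and less RNA per cell cannot be told apart.

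Edn1, the gene of the endothelin-1 precursor (chromosome 13, 42396639 to 42403358 of mm9, plus strand), had the largest log2 fold change of the 10. Its FPKM was 82.3, 75.3 and 40.6 in P5 isolations 1, 2 and 3, and 441, 375 and 220 in P30 isolations 1, 2 and 3. The lowest P30 isolation was 2.67 times the highest P5 isolation, so the ages did not overlap. The mean rose from 66.1 ± 22.4 to 345 ± 114 (SD, n = 3 at each age), 5.23-fold, with a log2 fold change of 2.37 (SE 0.33, 95% interval 1.60 to 3.15, adjusted p = 0.00194 from limma). Its level stood at percentile 56.9 of the genes tested at P5 and at percentile 93.3 at P30. Edn1 was called under each of the 17 alternative settings, including each isolation left out in turn, with adjusted p between 0.000529 and 0.00819 in limma. Within the P30 isolations Edn1 had the order of the RPE, pigment cell and photoreceptor lists, highest in isolation 1 and lowest in isolation 3. At P5 it had that of the pigment cell list but not of the RPE and photoreceptor lists. The pericyte and haematopoietic lists also had this order at P5, but not that of Edn1 at P30. Few orders are possible with 3 isolations, so a shared order is weak evidence. How many of all genes tested share a given order was not counted. Between P30 isolations 1 and 3 the RPE list differed 7.67-fold, the pigment cell list 9.13-fold, the photoreceptor list 6.86-fold and Edn1 2.01-fold, and the part of these cells' RNA in the level of Edn1 was not tested.

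Ace, which encodes angiotensin-converting enzyme (chromosome 11, 105829259 to 105851278, plus strand), was the other gene called higher at P30. FPKM values of 197, 214 and 150 in P5 isolations 1, 2 and 3 stood against 468, 414 and 308 in P30 isolations 1, 2 and 3. The lowest P30 isolation was thus 1.44 times the highest P5 isolation. The mean went from 187 ± 33.4 to 397 ± 81.3 (SD, n = 3), a log2 fold change of 1.08 (SE 0.19, adjusted p = 0.00503 from limma), close to the 2-fold limit. The call did not survive the loss of P5 isolation 1, 2 or 3 or of P30 isolation 1 or 2 (limma adjusted p between 0.0129 and 0.0219), while the fold change stayed between 0.92 and 1.25 on the log2 scale with any 1 isolation left out. At P30, though not at P5, Ace had the order of isolations of the RPE, pigment cell and photoreceptor lists, with a 1.52-fold difference between isolations 1 and 3, and their part in the rise was not tested. A non-coding gene, Gm11651, lies on the opposite strand over an exon of Ace, and the library kit did not mark strand.

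The bases just upstream of the annotated starts of Edn1 and Ace are shown because these were the 2 genes called. They are RefSeq promoter windows of the GRCm38.p6 build, cut to the 250 bases before the start and printed 5′ to 3′ on the gene's strand; 8 of the 10 genes had such a window, and Nos3 and Ptgis did not. Capitals mark matches on either strand to 4 short motifs, which can overlap each other. The TATA box was searched as TATAA, the GC box as GGGCGG, the site of the GATA factors as AGATAA and that of the AP-1 factors as TGANTCA.
Edn1, chr13:42301226-42301475, plus strand: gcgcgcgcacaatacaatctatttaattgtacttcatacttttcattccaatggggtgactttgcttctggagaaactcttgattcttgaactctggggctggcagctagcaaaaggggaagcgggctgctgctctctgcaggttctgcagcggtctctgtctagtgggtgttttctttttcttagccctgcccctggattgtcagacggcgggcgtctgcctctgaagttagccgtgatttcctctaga
Ace, first of 2 annotated starts, chr11:105967698-105967947, plus strand: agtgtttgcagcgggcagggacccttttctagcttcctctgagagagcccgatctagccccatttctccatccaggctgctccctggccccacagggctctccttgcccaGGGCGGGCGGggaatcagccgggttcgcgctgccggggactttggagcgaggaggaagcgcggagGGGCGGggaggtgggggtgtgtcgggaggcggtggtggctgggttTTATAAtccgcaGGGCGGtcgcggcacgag
The first window of Ace held 4 GC boxes, 2 of them overlapping between bases -140 and -131, and a TATA box from -30 to -25, read on both strands. The window of the second Ace start, not printed, and that of Edn1 matched none of the 4 motifs. Among 32536 windows of the same length, 22.7% held the TATA box, 33.0% the GC box, 9.97% the GATA letters and 6.73% the AP-1 letters. These matches describe the sequence and were not tested against expression.

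The receptors for endothelin-1 differed in level and in how far the isolations agreed. Ednrb, the type B receptor (chromosome 14, 104213842 to 104243390, minus strand), was the most abundant of the 10 genes at P5, at 780, 803 and 877 FPKM in P5 isolations 1, 2 and 3 and 1028, 883 and 1124 in P30 isolations 1, 2 and 3. The ages only just separated, as P30 isolation 2 was 1.01 times P5 isolation 3, and the log2 fold change was 0.30 (SE 0.12, 95% interval 0.03 to 0.57, adjusted p = 0.0789 from limma), falling to 0.024 after quantile normalization (limma adjusted p = 0.907). Ednra, the type A receptor (chromosome 8, 80186930 to 80248363, minus strand), had 83.6, 43.0 and 20.5 at P5 and 47.1, 240 and 129 at P30, again for isolations 1, 2 and 3. P30 isolation 1 lay below P5 isolation 1, so the ages overlapped. The log2 fold change of Ednra was 1.41 (SE 0.66, 95% interval -0.13 to 2.95, adjusted p = 0.126 from limma), an interval that holds a rise of several fold as well as no change, and it ran from 0.88 without P30 isolation 2 to 2.04 without P30 isolation 1.

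Ece1, the endothelin-converting enzyme (chromosome 4, 137418152 to 137521144, plus strand), was close to Ednrb in level. It had 762, 775 and 816 FPKM at P5 and 1067, 966 and 1036 at P30 in isolations 1, 2 and 3. The P30 isolations were at least 1.18 times every P5 isolation, and the mean was 1.30-fold higher (log2 fold change 0.38 ± 0.09 SE, 95% interval 0.17 to 0.59, limma adjusted p = 0.0142), short of both limits. After quantile normalization the log2 fold change of Ece1 was 0.11 (limma adjusted p = 0.401). As a percentage of the summed endothelial list, Ece1 was lower in every P30 isolation (3.39% to 3.78% at P5, 2.90% to 3.19% at P30), and so was Ednrb (3.51% to 4.06% and 2.79% to 3.18%). Relative to Cdh5 alone, which was itself lower at P30, both were instead higher in every P30 isolation. Ece1 was 25.3% to 27.5% of Cdh5 at P5 and 51.6% to 56.3% at P30, and Ednrb 26.2% to 29.6% and 47.1% to 61.1%. Of 5 other endothelin genes, Edn2 and Kel were listed at 0 in every isolation. Edn3, a second endothelin peptide, was called higher at P30 and rose from 67.1 ± 21.0 to 720 ± 359 FPKM (log2 fold change 3.32 ± 0.38 SE, limma adjusted p = 0.000869). Its P30 isolations 1, 2 and 3 had 376, 1093 and 692, the order of the pericyte and fibroblast lists. Its P5 isolations 1, 2 and 3 had 91.2, 53.3 and 56.7, the order of the fibroblast list but not of the pericyte list. The part of these lists in the rise was not tested. Ece2, a second converting enzyme, had 24.2 ± 9.11 at P5 and 8.02 ± 1.85 at P30 (adjusted p = 0.0101), and Mme, which encodes neprilysin, had 26.0 ± 9.41 and 17.1 ± 10.7 (adjusted p = 0.260 from limma).

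Nos3, the endothelial nitric oxide synthase (chromosome 5, 23870628 to 23890292, plus strand), was high at both ages. Its FPKM was 340, 366 and 280 in P5 isolations 1, 2 and 3 and 566, 400 and 412 in P30 isolations 1, 2 and 3. No P30 isolation fell below a P5 isolation, with a smallest margin of 1.09-fold. The log2 fold change was 0.47 (SE 0.17, 95% interval 0.09 to 0.86, adjusted p = 0.0567 from limma) and was not called. Atg9b, listed at 6.22 to 14.3 FPKM, and the non-coding Gm15587 lie on the opposite strand over exons of Nos3, and their part in its reads was not tested.

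Gucy1a3 and Gucy1b3, the alpha and beta subunits of soluble guanylate cyclase, are neighbours on the minus strand of chromosome 3 (81896350 to 81949799 and 81835926 to 81878633). Gucy1a3 had 159, 88.5 and 50.8 FPKM in P5 isolations 1, 2 and 3 and 81.3, 281 and 164 in P30 isolations 1, 2 and 3. Gucy1b3 had 86.5, 49.0 and 32.2 at P5 and 61.1, 369 and 181 at P30. In both genes the ages overlapped, because P30 isolation 1 was below P5 isolation 1. Neither was called (log2 fold change 0.79, SE 0.52, adjusted p = 0.258 for Gucy1a3 and 1.62, SE 0.63, adjusted p = 0.0789 for Gucy1b3, from limma). Both 95% intervals were wide, -0.42 to 2.004 for Gucy1a3 and 0.14 to 3.09 for Gucy1b3. Without P30 isolation 2 the log2 fold changes were 0.37 and 1.02, and without P30 isolation 1 they were 1.26 and 2.30, neither gene being called.

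Within each age, Ednra, Gucy1a3 and Gucy1b3 followed the order of the pericyte list. In all 3 genes, as in the summed pericyte list, isolation 1 was highest and isolation 3 lowest at P5, and isolation 2 was highest and isolation 1 lowest at P30. None of the other 7 genes had this pair of orders, but how many of all genes tested had it was not counted. Nos3 and Ptgis had the order of the summed endothelial list at both ages. Set against Pdgfrb, a pericyte receptor, in the same isolation, Ednra was 37.0%, 38.7% and 42.3% of the Pdgfrb FPKM in P5 isolations 1, 2 and 3 and 20.5%, 24.2% and 26.3% in P30 isolations 1, 2 and 3. Gucy1a3 was 70.2% to 105% of Pdgfrb at P5 and 28.3% to 35.3% at P30, and Gucy1b3 38.3% to 66.3% and 26.5% to 37.2%. Relative to Pdgfrb these 3 genes were thus lower in every P30 isolation, although their mean FPKM was higher at P30. Against the summed pericyte list, Ednra and Gucy1a3 were again lower in every P30 isolation, while Gucy1b3 overlapped (5.05% to 6.89% at P5, 3.32% to 5.93% at P30). The part of pericyte RNA in these levels was not tested.

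**Figure D2:**
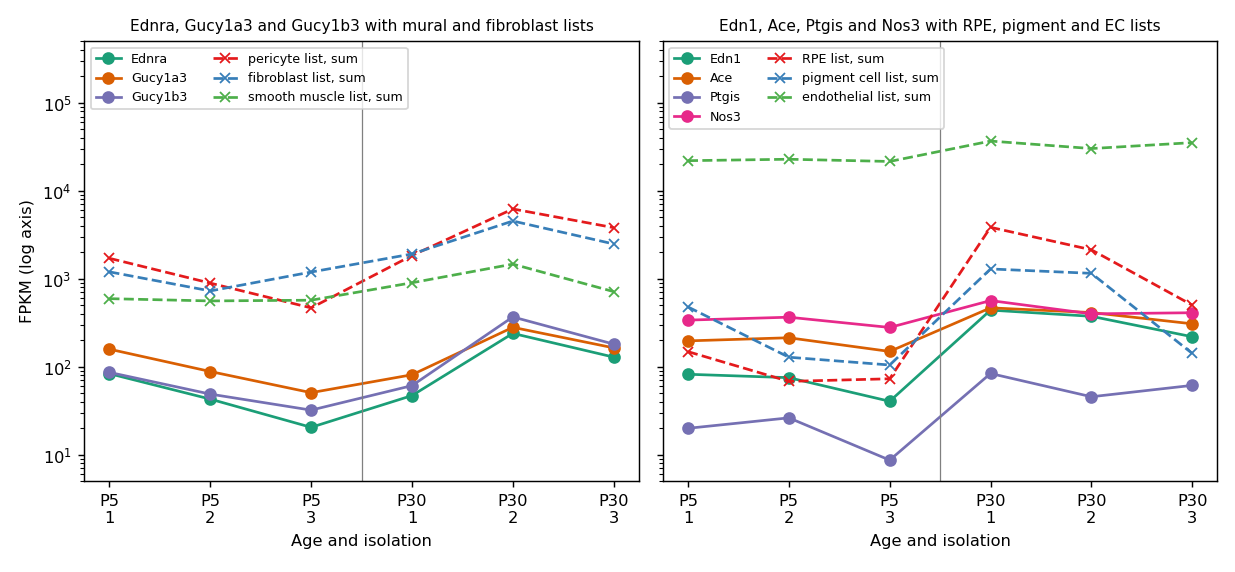
FPKM (log axis) of 7 vasoactive genes (solid lines, circles) beside the summed FPKM of marker lists (dashed lines, crosses) in each isolation, with lines joining isolations only to guide the eye. Within each age, Ednra, Gucy1a3 and Gucy1b3 have the isolations in the same order as the pericyte list, while Edn1 is 2.01-fold apart between P30 isolations 1 and 3, in which the RPE list is 7.67-fold apart.

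Other genes of nitric oxide and cGMP signalling moved in both directions. Of 21 in the list, 16 were tested and 3 were called higher at P30, where 5.89% of all genes tested were. Npr3, the clearance receptor for natriuretic peptides, rose from 16.6 ± 1.65 to 77.1 ± 5.92 FPKM (log2 fold change 2.15 ± 0.14 SE, limma adjusted p = 0.000160), and Nostrin, a trafficking partner of the endothelial synthase, from 97.8 ± 4.37 to 229 ± 40.0 (log2 fold change 1.204). Gch1, the first enzyme in the synthesis of tetrahydrobiopterin, a cofactor of the synthase, rose from 60.7 ± 3.84 to 128 ± 22.7 (log2 fold change 1.05). None was called higher at P5 in limma, but Ddah1 and Ddah2, which break down an inhibitor of the synthase, and Nos2, the inducible synthase, passed the adjusted p at falls short of 2-fold and are named here after their values were seen. Ddah1 had 252 ± 15.3 and 133 ± 19.0 FPKM (log2 fold change -0.93), Ddah2 had 486 ± 53.8 and 269 ± 11.5 (-0.85), and Nos2 had 67.1 ± 4.81 and 33.9 ± 3.54 (-0.97). Without P30 isolation 3 Ddah1 was called (log2 fold change -1.05), and without P30 isolation 2 Nos2 was called (-1.03). Cav1, the caveolar protein that binds the synthase, was the highest of the list, at 1293 ± 253 and 1200 ± 88.2 (adjusted p = 0.675 from limma).

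Of the prostacyclin enzymes, Ptgs1 (chromosome 2, 36085946 to 36107792, plus strand), which encodes the constitutive cyclooxygenase, was nearly level. It had 359, 358 and 367 FPKM at P5 and 376, 357 and 317 at P30 in isolations 1, 2 and 3. At P30, though not at P5, Ptgs1 too had the order of the RPE, pigment cell and photoreceptor lists. The ages overlapped, and the log2 fold change was -0.05 (SE 0.10, 95% interval -0.28 to 0.18, adjusted p = 0.711 from limma), with a sign that turned under median centring (0.037) and without P30 isolation 3 (0.022). Ptgs1 is also known in platelets and macrophages. Of the platelet list only Pf4 was lower in every P30 isolation, and the haematopoietic list overlapped between the ages, as given above.

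Ptgis, prostacyclin synthase (chromosome 2, 167017305 to 167066104, minus strand), was the least abundant of the 10 genes at both ages. Its FPKM was 20.01, 26.3 and 8.70 in P5 isolations 1, 2 and 3 and 84.0, 45.7 and 61.5 in P30 isolations 1, 2 and 3. Every P30 isolation was at least 1.74 times every P5 isolation, and the mean was 3.48-fold higher. The log2 fold change was 1.83 (SE 0.40, 95% interval 0.90 to 2.76), and the adjusted p of 0.0109 from limma narrowly missed the limit. It was called with a pseudocount of 5 (0.00922), with a minimum mean FPKM of 20 (0.00975) and after quantile normalization (0.00849), and in 0 of the 6 fits that left out an isolation. A non-coding gene, 1110018N20Rik, lies on the opposite strand over an exon of Ptgis, and another, 4933431K23Rik, over an exon of Ednra.

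The wider prostanoid list held the largest changes. Of 16 genes, 14 were tested, 5 were called higher at P30 and none at P5 in limma (5.89% and 5.82% of all genes tested). Ptgs2, the inducible cyclooxygenase, had 15.6, 7.13 and 12.9 FPKM in P5 isolations 1, 2 and 3 and 121, 285 and 84.1 in P30 isolations 1, 2 and 3 (log2 fold change 3.54 ± 0.46 SE, limma adjusted p = 0.00143). The lowest P30 isolation was 5.38 times the highest P5 isolation. At both ages Ptgs2 had the order of isolations of the smooth muscle list. At P5, however, that list spanned only 1.06-fold and was mostly Smtn, which had another order. The RPE, fibroblast and photoreceptor lists shared the P5 order of Ptgs2, but not its P30 order. The part of the smooth muscle list in the rise was not tested. Ptgds, prostaglandin D synthase, rose from 45.0 ± 29.5 to 1397 ± 988 (log2 fold change 4.74 ± 0.70 SE, limma adjusted p = 0.00231). It had 2337, 1487 and 367 in P30 isolations 1, 2 and 3, the order of the RPE, pigment cell and photoreceptor lists. In P5 isolations 1, 2 and 3 it had 79.0, 28.7 and 27.3, the order of the pigment cell list but not of the RPE and photoreceptor lists. The part of these lists in the rise was not tested. Receptors also rose: Tbxa2r, for thromboxane, from 178 ± 16.3 to 420 ± 156 (log2 fold change 1.17, adjusted p = 0.00983) and Ptger4, for prostaglandin E2, from 3.67 ± 2.03 to 22.4 ± 5.03 (2.39, adjusted p = 0.00263, from limma). Ptger4 had 17.7, 27.7 and 21.9 in P30 isolations 1, 2 and 3, the order of the pericyte and fibroblast lists. In P5 isolations 1, 2 and 3 it had 6.02, 2.48 and 2.52, the order of the fibroblast list but not of the pericyte list. The part of these lists was not tested. Abcc4, an exporter of prostanoids and cyclic nucleotides, rose from 94.0 ± 7.15 to 202 ± 21.0 (log2 fold change 1.09, adjusted p = 0.000638 from limma).

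In the angiotensin and kinin list, 4 of 10 genes were tested besides Ace. Enpep, the aminopeptidase that trims angiotensin II, was called, rising from 91.9 ± 18.1 to 340 ± 73.5 FPKM (log2 fold change 1.87 ± 0.20 SE, limma adjusted p = 0.000660). Its P30 isolations 1, 2 and 3 had 256, 391 and 373, in the order of the pericyte and fibroblast lists. Its P5 isolations 1, 2 and 3 had 112, 78.3 and 85.0, the order of the fibroblast list but not of the pericyte list. The part of these lists was not tested. Anpep, aminopeptidase N, which trims angiotensin III, had 56.3, 38.8 and 29.1 in P5 isolations 1, 2 and 3 and 57.9, 130.4 and 66.1 in P30 isolations 1, 2 and 3. The lowest P30 isolation was just above the highest P5 isolation, and the difference was not called (log2 fold change 0.97 ± 0.35 SE, limma adjusted p = 0.0599). Ren1, the renin gene, was listed at 0 in every isolation. Over the 4 lists, 10 of 37 tested genes were called higher at P30 and 0 higher at P5 (limma), against 5.89% and 5.82% of all genes tested, and their median log2 fold change was 0.71. At an unadjusted p under 0.05, 17 were higher and 8 lower, where 6176 of the 12481 genes passed in either direction.

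**Figure D3:**
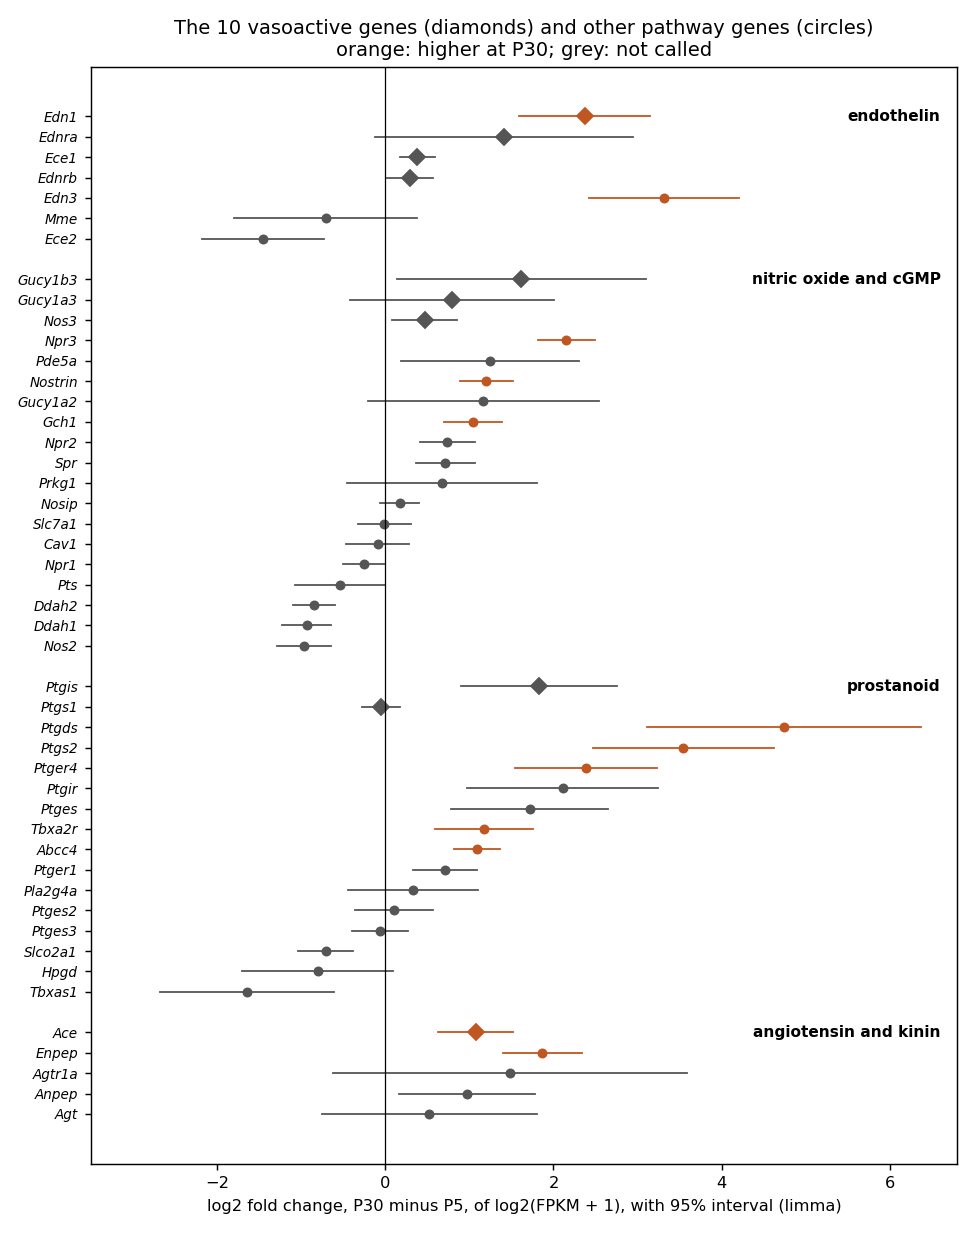
Log2 fold change (P30 minus P5) of log2(FPKM + 1) with its 95% interval from limma, for the 10 vasoactive genes (diamonds) and the 37 tested genes of the 4 pathway lists (circles). Orange marks the genes called higher at P30, from 1.05 for Gch1 to 4.74 for Ptgds. Among the diamonds the grey intervals of Ednra, Gucy1a3 and Ptgs1 cross 0, as do those of many circles.

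The order of levels among the 10 genes differed in part between the ages. At P5 the mean FPKM fell in the order Ednrb, Ece1, Ptgs1, Nos3, Ace, Gucy1a3, Edn1, Gucy1b3, Ednra and Ptgis. Only Ece1 and Ptgs1, and Nos3 and Ace, were neighbours whose ranges did not overlap. At P30 the order was Ece1, Ednrb, Nos3, Ace, Ptgs1, Edn1, Gucy1b3, Gucy1a3, Ednra and Ptgis, and only Ednrb and Nos3 were neighbours without overlap. Edn1 ranked 7 at P5 and 6 at P30, where its range overlapped those of Ptgs1 and Gucy1b3.

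Ratios of FPKM within an isolation do not depend on its scaling. The log2 ratios of FPKM + 1 do so slightly where a gene is low. For Ptgis to Ptgs1 the difference between ages was 1.94 with a pseudocount of 0.1 and 1.65 with a pseudocount of 5. Of these log2 ratios, 5 were compared between the ages with exact two-sided permutation tests. The smallest p that 3 isolations against 3 allow is 0.1. Edn1 was 0.242, 0.206 and 0.145 of the Nos3 FPKM in P5 isolations 1, 2 and 3 and 0.779, 0.937 and 0.533 in P30 isolations 1, 2 and 3. The mean log2 ratio of FPKM + 1 went from -2.35 ± 0.37 to -0.45 ± 0.41 (SD, n = 3, exact p = 0.1), and the P30 isolations did not overlap those of P5. Ptgis to Ptgs1 went from -4.35 ± 0.80 to -2.48 ± 0.41 on the same scale, also without overlap (exact p = 0.1). Gucy1a3 to Gucy1b3 went from 0.78 ± 0.12 to -0.04 ± 0.41 and Ednra to Pdgfrb from -1.33 ± 0.11 to -2.08 ± 0.17, both lower in every P30 isolation (exact p = 0.1 for each). Ednrb was 9.34, 18.7 and 42.7 times Ednra in P5 isolations 1, 2 and 3 and 21.8, 3.68 and 8.72 times in P30 isolations 1, 2 and 3, and the overlapping log2 ratios did not separate the ages (4.25 ± 1.07 and 3.14 ± 1.27, exact p = 0.4). Adjusted over the 5 ratios, p was 0.125 for the 4 that separated.

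**Figure D4:**
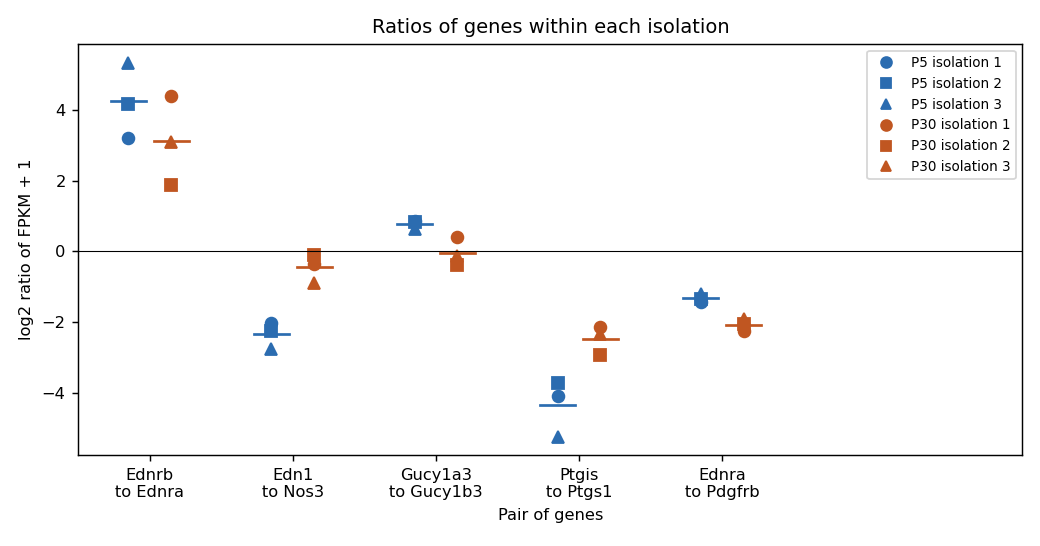
Log2 ratio of FPKM + 1 of 5 pairs of genes within each P5 (blue) and P30 (orange) isolation, with bars at the mean of each age. The ratios Edn1 to Nos3 and Ptgis to Ptgs1 are higher and Gucy1a3 to Gucy1b3 and Ednra to Pdgfrb lower in every P30 isolation, and Ednrb to Ednra overlaps.

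For each of the 10 genes, the 3 other tested genes with the most similar pattern were found by the root mean square difference of centred log2(FPKM + 1) over the 6 isolations. They were Fam107a, Enpp2 and Fgfr3 for Edn1 (0.16 to 0.21) and Arl4a, Aldoart2 and Nr1h2 for Ace (0.11 for each). Those of Ednra were Ccdc3, E130203B14Rik and Klhl29 (0.11 to 0.15), and those of Gucy1b3 were Lama2, Ccdc3 and Prrx1 (0.12 to 0.14), so Ccdc3 was shared by both. Gucy1a3 was nearest to Sp7, Hrc and Wdr86 (0.10 to 0.15), which were themselves listed at 1.29 to 14.7 FPKM. Ptgis was nearest to Endog, Lmo1 and Slc2a1 (0.21 to 0.27). Genes that varied little had closer matches, Eltd1, Zfp187 and Swap70 for Ece1 (0.02 to 0.05), Itfg2, Akap1 and Zfp715 for Ednrb (0.05 to 0.06), Fam109a, Ppip5k1 and Bag5 for Nos3 (0.03 to 0.06) and Becn1, Zfp706 and Eaf1 for Ptgs1 (0.01 to 0.02).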

How the data were processed

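RNA of sorted choroid ECs was sequenced by the authors from 3 P5 and 3 P30 isolations. Samples were assigned to age and isolation number from their titles. Reads had been mapped to mm9 by TopHat, and the authors deposited 1 FPKM value from CuffLinks, normalized for GC and to the upper quartile, per gene symbol and isolation. CASAVA 1.8.2 and FastQC are also named in the submitters' processing notes, and the versions of TopHat and CuffLinks and the gene annotation are not given in the sources used here. Read counts were not used here. The low FPKM values did not fall on steps of single reads (the fullest bin of log2 ratios between 2 isolations held at most 3.55% of low genes), so the depth of a library is unknown and counting error is not given. Upper quartile scaling fixes only part of each distribution, so a fold change is relative to the other genes.

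log2(FPKM + 1) was fitted with limma 3.58.1 in R 4.3.3 (lmFit, eBayes with trend, no replicate block). The fit was tested on simulated data with known changes. This test replaced the count test of the study. Other steps used Python 3.11.15, numpy 2.4.6, pandas 2.3.3, scipy 1.17.1 and matplotlib 3.10.9. Since a gene with low FPKM is compressed by the added 1, its change is understated. The 10 genes and the pathway and marker lists were chosen with earlier results of these data known. Named were the 10 genes, the pathway genes called, the 2 most abundant of each pathway list, and the 3 nearest genes of each of the 10. For marker lists the rule was the first and the 2 most abundant genes with any listed at 0. It was not followed in full, as several lists are given only as sums. Ece2, Tbxas1, Ptgir, Ddah1, Nos2, Npr2, Spr and Slco2a1 were named outside these rules, after their values were seen. So were the markers Cspg4, Notch3 and Abcc9, and Cdh5 was also outside the rule for its list. Ptges (log2 fold change 1.71, limma adjusted p = 0.0139) and Ptger1 (0.71, limma adjusted p = 0.0127) also missed the limit and are not described elsewhere. One gene of the angiotensin and kinin list is not reported here and was left out of the list's counts, which left the number of calls as it was. Marker gene Adgre1 was matched to its synonym Emr1. Motifs were chosen after the promoter windows had been read. Gene positions are those of GENCODE vM1 on NCBIM37 (mm9). Same-numbered isolations deviated from their age means with correlations of -0.09 to -0.03, which cannot settle whether they were handled together. The labels do not tie the numbers to a litter or day, so any pairing is unknown, and the main fit used none.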

Additional observations from a re-analysis of the deposited data

How the results depend on the processing

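The 6 values per gene, with unknown depth, limit what can be called here. Of 17 alternative settings, Edn1 was called in 17, Ace in 10, Ptgis in 3 and the other 7 genes in none, and the 10 genes gave 0 calls higher at P5 in limma under each setting. Without the trend in limma, 1 of the 10 genes was called higher at P30, since Ace lost its call (adjusted p = 0.0139). Under quantile normalization and median centring the 2-fold limit was set on the limma log2 fold change in place of mean FPKM + 1. By that rule Ace kept an adjusted p of 0.00384 in limma after quantile normalization but fell just short of 2-fold (log2 fold change 0.999). With array weights the limit stayed on mean FPKM + 1, and Ace was called at a limma log2 fold change of 0.91. The log2 fold change of Ptgs1 reversed to 0.037 under median centring and to 0.022 without P30 replicate 3. With 1 isolation left out it ran from -0.10 to 0.022, and it was lowest after quantile normalization (-0.18). Leaving out 1 isolation, the 10 genes gave between 1 and 2 calls higher at P30, the pathway lists between 6 and 10 higher at P30 and between 0 and 2 higher at P5, and all genes between 396 and 849 higher at P30 and between 291 and 754 higher at P5. The fewest calls came without P5 replicate 2 or 3, and the cause was not tested. The pathway genes called higher at P5 were Nos2 without P30 replicate 2 and Ddah1 and Tbxas1 without P30 replicate 3. With the replicate block, the calls numbered 585 at P30 and 524 at P5 (735 and 726 without it), and held 2 of the 10 genes, Edn1 and Ace, and 8 in place of 10 pathway genes. The block left the differences in log2 ratio as they were (1.90 for Edn1 to Nos3, 1.88 for Ptgis to Ptgs1, -0.83 for Gucy1a3 to Gucy1b3, -0.75 for Ednra to Pdgfrb and -1.11 for Ednrb to Ednra). Its sign-flip test cannot go below 0.25, which it gave for all but the last (exact permutation, p = 0.5). No ratio changed direction under another pseudocount or with 1 isolation left out, and the difference for Ednrb to Ednra ran from -1.76 to -0.48.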

Other observations

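Beyond the genes called, 6 of the 37 tested pathway genes passed an adjusted p of 0.01 in limma without reaching 2-fold, and 3 of them are described above (Ddah1, Ddah2 and Nos2). The others, named after their values were seen, were Npr2, Spr and Slco2a1. Npr2, the receptor for C-type natriuretic peptide, which makes cGMP itself, had 96.7 ± 15.4 FPKM at P5 and 161 ± 12.6 at P30 (mean and SD, n = 3, log2 fold change 0.74, limma adjusted p = 0.00623). Spr, sepiapterin reductase, the last enzyme of tetrahydrobiopterin synthesis, had 100.5 ± 9.13 and 166 ± 29.5 (0.71, limma adjusted p = 0.00945). Slco2a1, which takes up prostaglandins, went the other way, with 271 ± 30.9 and 166 ± 24.8 (log2 fold change -0.71, limma adjusted p = 0.00772). Tbxas1, thromboxane synthase, had 15.6, 15.0 and 10.4 in P5 isolations 1, 2 and 3 and 2.74, 2.07 and 7.65 in P30 isolations 1, 2 and 3 (log2 fold change -1.64, limma adjusted p = 0.0240), and Ptgir, the prostacyclin receptor, had 4.88, 2.57 and 1.04 against 9.79, 22.0 and 12.8 (2.11, limma adjusted p = 0.0136).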
